A study of Mus musculus with 6 samples.

Results

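The non-collagen matrix genes of cartilage were examined in a map of methylated DNA from mouse chondrocytes. The 10 genes were listed by name for the roles of their proteins, with earlier results of these data known, and no measured value enters the rule: Hapln1, Vcan, Has2, Fmod, Prelp, Chad, Matn1, Matn3, Prg4 and Hspg2. All 10 lay on sequence covered by the data, on 6 chromosomes, among 15768 protein-coding genes. In all, 52 of 84111 peaks had their midpoint in the body of one of these genes or within 10 kb of it.

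The study profiled 6 primary cultures of knee articular chondrocytes, taken from mice at postnatal day 3 to 5 and grown in DMEM with serum. Of these, 3 were controls labelled "Dnmt1 flox" and 3 were conditional knockouts (cKO) labelled "Prx1-Cre;Dnmt1 flox/flox". Floxed Dnmt1 was thus present in both groups, and the labels do not state how many floxed alleles the controls carried. The Prx1 promoter drives Cre in limb mesenchyme, from which limb cartilage forms, and Dnmt1 copies CpG methylation onto newly made DNA strands. Sheared DNA was enriched for methylated CpGs by binding to MBD2, a protein that recognises them, and was then sequenced (MBD-seq). The single peak list analysed was called on 3 merged datasets that are not tied to a group, and its title describes regions of methylation mediated by Dnmt1. No value belongs to one culture, so control and cKO could not be compared, no spread between cultures can be given and the depth per sample is unknown. Gene expression was not analysed here, so the labelled cell type could not be checked against its markers.

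Cartilage matrix is built around very large proteoglycan aggregates. Proteoglycans bind along hyaluronan chains and are held there by link proteins, while matrilins and leucine-rich repeat proteins connect these aggregates, collagen fibrils and cells. Perlecan, a heparan sulfate proteoglycan, lies in the pericellular matrix directly around the chondrocyte, and lubricin coats the joint surface. In mammals, CpG-rich promoters are mostly unmethylated, whereas bodies of genes are often methylated.

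The sequence before the start site was available for 8 of the 10 genes, as the 250 bases preceding each RefSeq start (GRCm38.p6). No peak overlapped any of these 8 windows by at least 1 bp. Among 15400 such windows of 12546 protein-coding genes, 2.62% were overlapped, so an absence in 8 windows is near the background. Of the 8 genes, 1 (Matn1) had a peak midpoint within 2 kb of its start, against 14.3% of all these starts, and 0 had one within 1 kb, against 6.88%; both are near the background. The windows of 4 genes are shown because they span the range found among the members, from the CpG-rich window of the gene with most peaks to the CpG-poor window of a gene with none. Capitals mark each CpG, the dinucleotide that carries the methyl groups bound by MBD2; the letters CG read the same on both strands and occur at least once in 94.4% of the 15400 windows. Sequences run 5′ to 3′ in the direction of transcription, and all 4 genes are on the plus strand.
Hspg2: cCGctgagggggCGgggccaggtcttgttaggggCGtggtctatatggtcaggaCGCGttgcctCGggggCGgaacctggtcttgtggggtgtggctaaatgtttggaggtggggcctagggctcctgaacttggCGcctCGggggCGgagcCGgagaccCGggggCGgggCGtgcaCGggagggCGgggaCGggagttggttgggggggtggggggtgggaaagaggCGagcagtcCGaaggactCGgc
Chad: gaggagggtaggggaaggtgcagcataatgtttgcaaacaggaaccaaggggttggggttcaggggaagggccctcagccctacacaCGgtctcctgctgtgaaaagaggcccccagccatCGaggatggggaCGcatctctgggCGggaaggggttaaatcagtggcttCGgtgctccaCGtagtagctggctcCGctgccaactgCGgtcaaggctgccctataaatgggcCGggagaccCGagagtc
Matn1: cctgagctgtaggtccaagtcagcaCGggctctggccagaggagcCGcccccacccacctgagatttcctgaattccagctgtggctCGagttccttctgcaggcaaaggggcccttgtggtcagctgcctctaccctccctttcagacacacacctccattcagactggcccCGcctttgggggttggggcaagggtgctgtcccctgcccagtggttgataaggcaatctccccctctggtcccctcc
Fmod: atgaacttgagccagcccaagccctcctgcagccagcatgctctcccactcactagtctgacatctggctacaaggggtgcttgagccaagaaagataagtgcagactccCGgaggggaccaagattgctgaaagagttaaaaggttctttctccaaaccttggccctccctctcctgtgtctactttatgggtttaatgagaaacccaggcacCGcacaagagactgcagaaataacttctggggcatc

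The Hspg2 window (chr4:137468553-137468802, plus strand) held 20 CpGs at a GC content of 70%. The Chad window (chr11:94564797-94565046) held 10, the Matn1 window (chr4:130944135-130944384) held 4 and the Fmod window (chr1:134037004-134037253) held 2. The Hspg2 window had the most CpGs of the 8, and the peak midpoint nearest to its start was 7.86 kb away. In the remaining members the windows held 2 CpGs for Hapln1, 5 for Prelp, 10 for Vcan and 14 for Matn3, against a median of 11 over all windows. Over protein-coding genes, a peak overlapped 1.21% of 3152 windows with 0 to 2 CpGs, the class of Fmod and Hapln1, and 5.60% of 3265 windows with 3 to 7, the class of Matn1 and Prelp. It overlapped 4.01% of 3344 windows with 8 to 15, the class of Chad, Vcan and Matn3, and 0.869% of 5639 windows with 16 or more, the class of Hspg2.

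At least 1 peak was found in the body or within 10 kb of 8 of the 10 genes, against 81.7% of all protein-coding genes analysed. In the body alone the count was 7 of 10, against 64.7%. Both shares were near the background. The fold and −log10 q given for each peak below are the authors' deposited values. Has2 and Fmod had no peak in either setting, and Prg4 had none in the body. A missing peak says only that no region there reached the limit of the list, whose lowest −log10 q was 20.004. Of the 52 peaks, 43 lay in gene bodies and 9 in the flanking 10 kb. Every one of the 9 flanking peaks was also inside another gene of the RefSeq table. The same share was not computed for flanking peaks of all protein-coding genes, so it cannot be called particular to these members.

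**Figure D1:**
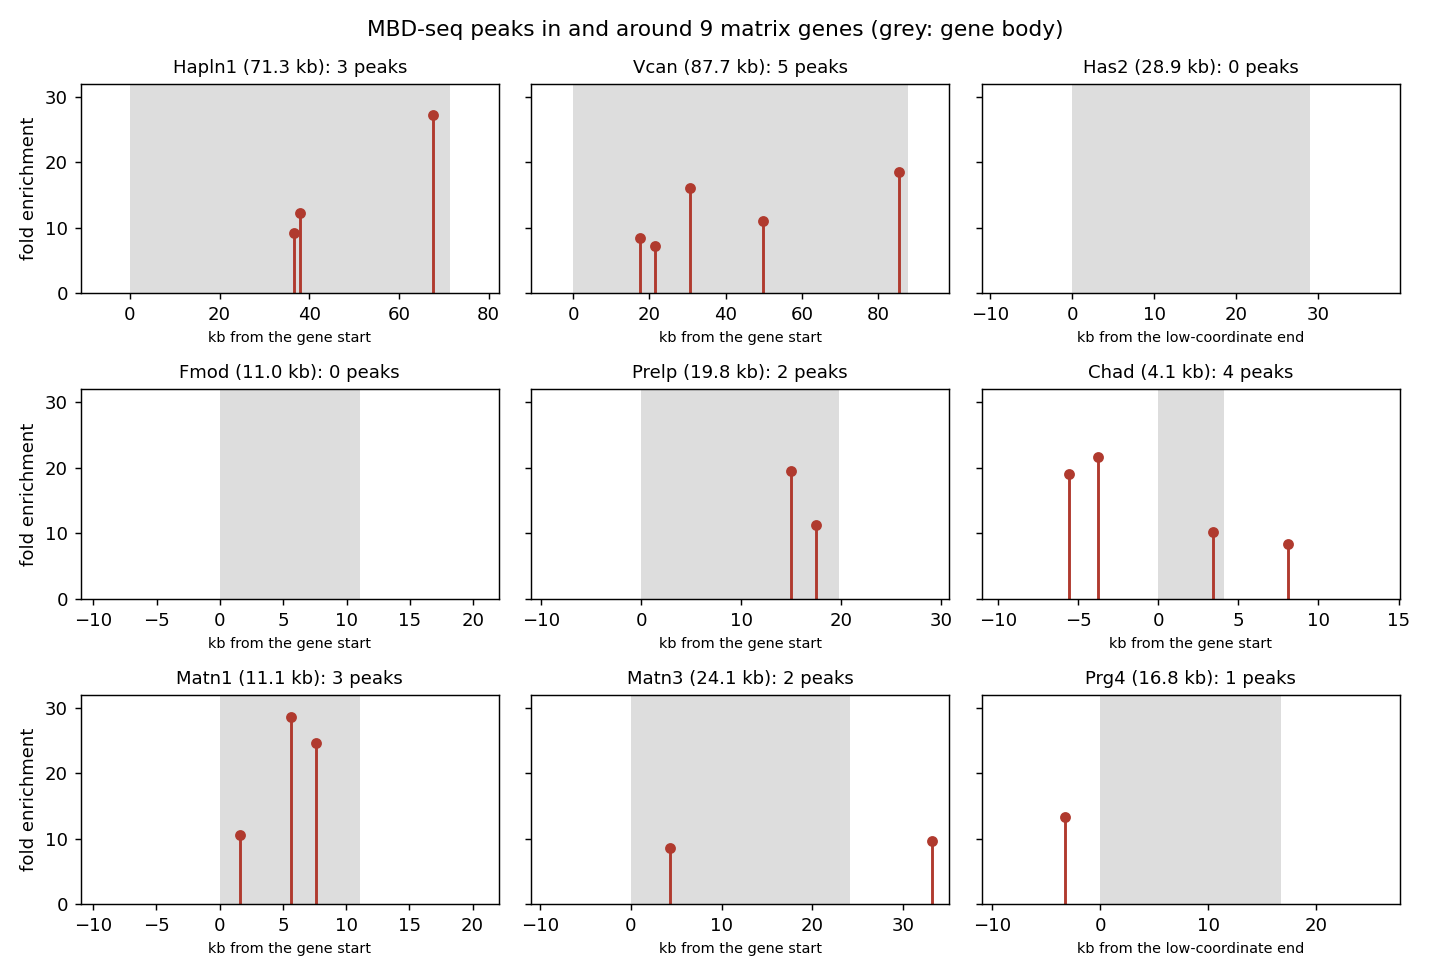
Peaks of 9 matrix genes, placed by midpoint in kb from the gene start (for Has2 and Prg4 from the low-coordinate end) against fold enrichment; grey marks the gene body and 10 kb are shown on each side. Has2 and Fmod hold none, the single Prg4 peak is outside the body, and the tallest peaks of Hapln1 and Vcan lie close to the ends of these genes.

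None of the genes of the hyaluronan aggregate had more peaks in the body or within 10 kb than the median for its length. All of their peaks lay in gene bodies, and by body peaks alone Vcan was above the median, with 5 against 4. Hapln1 (chr13:89540529-89611832, plus strand, 71.3 kb) encodes the link protein that locks proteoglycans onto hyaluronan and had 3 peaks. Vcan (chr13:89655309-89743027, minus strand, 87.7 kb) encodes versican, a large chondroitin sulfate proteoglycan that binds hyaluronan, and had 5. Has2 (chr15:56665627-56694546, 28.9 kb) encodes a synthase of the hyaluronan chain itself and had none.

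The Hapln1 peaks were a pair near the middle of the gene and a stronger one near its end. The pair lay 36.7 and 37.9 kb from the gene start, with folds of 9.22 (256 bp wide) and 12.3 (292 bp), inside a pseudogene, Gm8546, that sits in the Hapln1 body. The third, at chr13:89607787-89608270, was 484 bp wide, with a fold of 27.3 and a −log10 q of 216. It lay at 94.7% of the gene length.

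Vcan likewise had its highest fold, 18.4, in the peak nearest its end, at 97.6% of the gene length (chr13:89657150-89657712, 563 bp). Its other 4 peaks had folds of 16.01, 11.1, 8.41 and 7.19 and lay between 17.7 and 49.8 kb from the gene start. Hapln1 and Vcan are neighbours that point towards each other, with 43.5 kb between their ends. That interval held no peak, and the strongest peaks of both genes lay on either side of it. Peaks were sparse around both genes. The 1 Mb centred on each held 15 for Hapln1 and 14 for Vcan, against a median of 53 for protein-coding genes. These windows share most of their sequence, so both counts describe the same region. Whether an empty stretch of this length is unusual there was not tested.

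Has2 was the longer of the 2 genes without peaks. The nearest midpoints lay 40.04 kb below its low-coordinate end, in a narrow peak of 60 bp with a fold of 6.10, and 108.6 kb above its high-coordinate end, with a fold of 16.7. Among 1771 protein-coding genes of similar length, 237 (13.4%) also had no peak within 10 kb, and the median was 3.

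The leucine-rich repeat proteins differed from one another. Fmod (chr1:134037254-134048280, plus strand, 11.03 kb), whose product fibromodulin binds collagen fibrils, had no peak. Prelp (chr1:133910304-133930102, minus strand, 19.8 kb), whose product anchors basement membranes to connective tissue, had 2, and Chad (chr11:94565047-94569127, plus strand, 4.08 kb), which encodes the cell-binding protein chondroadherin, had 4.

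The nearest peaks to Fmod were 20.4 kb above it, with a fold of 25.8, and 36.3 kb below it, with a fold of 18.5 inside the lncRNA Bmncr. Of 1489 genes of similar length, 272 (18.3%) had none. The 107.2 kb between Prelp and Fmod held 2 peaks, both in Bmncr. Fmod was therefore without peaks in a neighbourhood that had them, as 51 peaks lay in the 1 Mb centred on it.

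Both Prelp peaks were in the later part of the body. The peak at chr1:133914883-133915373 had a fold of 19.5 and a width of 491 bp at 75.6% of the gene length, and that at chr1:133912459-133912780 a fold of 11.3 and 322 bp at 88.3%. Counted from the start in the promoter table, which lies inside the Prelp body, they were 6.27 and 8.78 kb away.

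Chad was the shortest member, and 3 of its 4 peaks were outside its body. Before the start, peaks with folds of 19.0 (409 bp) and 21.7 (355 bp) lay 5.55 and 3.78 kb away. The body peak (chr11:94568191-94568778) had a fold of 10.2 over 588 bp at 84.2% of the gene length, and a peak 4.01 kb after the end had a fold of 8.41. The whole of Chad lies within the gene Acsf2, an acyl-CoA synthetase family member, so that all 4 peaks are also Acsf2 body peaks and cannot be assigned to one gene. Chad had more peaks than 80.1% of 963 genes of similar length. By number in the body, where Chad had 1, 343 of these genes (35.6%) had at least as many.

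The matrilins, adaptor proteins that link collagen and proteoglycans, stood on either side of the median for their length. Matn1 (chr4:130944385-130955476, plus strand, 11.1 kb) had 3 peaks, all in the body, against a median of 2 over 1482 genes. Matn3 (chr12:8947929-8972028, plus strand, 24.1 kb) had 2 against a median of 3 over 1771 genes, and only 1 of them was in the body.

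Matn1 had 2 strong peaks and a weaker one near its start. The strong ones had folds of 28.6 (chr4:130949754-130950313, 560 bp) and 24.7 (chr4:130951746-130952324, 579 bp), at 5.65 and 7.65 kb from the start. The weaker one, 1.58 kb from the start, had a fold of 10.6 over 376 bp and was the nearest to a start site in any of the 8 genes with a known start. By number in the body, 273 of the 1482 similar genes (18.4%) had at least as many as Matn1. Counting the body and 10 kb on each side, 655 (44.2%) had at least as many.

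The Matn3 peaks were both weak. The body peak, 4.30 kb from the start, had a fold of 8.68 (382 bp), and the other, with a fold of 9.63 (217 bp), lay 9.10 kb after the end inside the neighbouring gene Wdr35. This second peak was the one closest to the 10 kb limit from within. Just beyond the limit were a peak 11.8 kb below Hspg2 (fold 14.7) and one 12.03 kb below Matn3 (fold 13.02).

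Prg4 (chr1:150449412-150466221, 16.8 kb), which encodes the joint lubricant lubricin, had a single peak and none in its body. The peak, 3.26 kb below the low-coordinate end (chr1:150445982-150446332, 351 bp, fold 13.3), is in the body of the adjoining gene Tpr, a nuclear pore component. Among 1729 genes of similar length, 548 (31.7%) had no body peak. With 10 kb on each side included, 1454 of them (84.1%) had at least 1 peak, as Prg4 did.

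Hspg2 stood apart from the other members in peak number. It encodes perlecan and is the longest of the 10 genes (chr4:137468751-137570630, plus strand, 101.9 kb). It had 32 peaks, 28 of them in the body, and so held 61.5% of all peaks of the 10 genes. Among 926 protein-coding genes of similar length the median was 5 peaks (quartiles 3 and 10), and 9 genes (0.972%) had at least 32. Per length, Hspg2 had 27.5 body peaks per 100 kb, against 5.69 over all protein-coding genes together and 5.46 over the other 9 members together. It ranked 31st by this measure among the 3828 protein-coding genes of at least 50 kb.

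**Figure D2:**
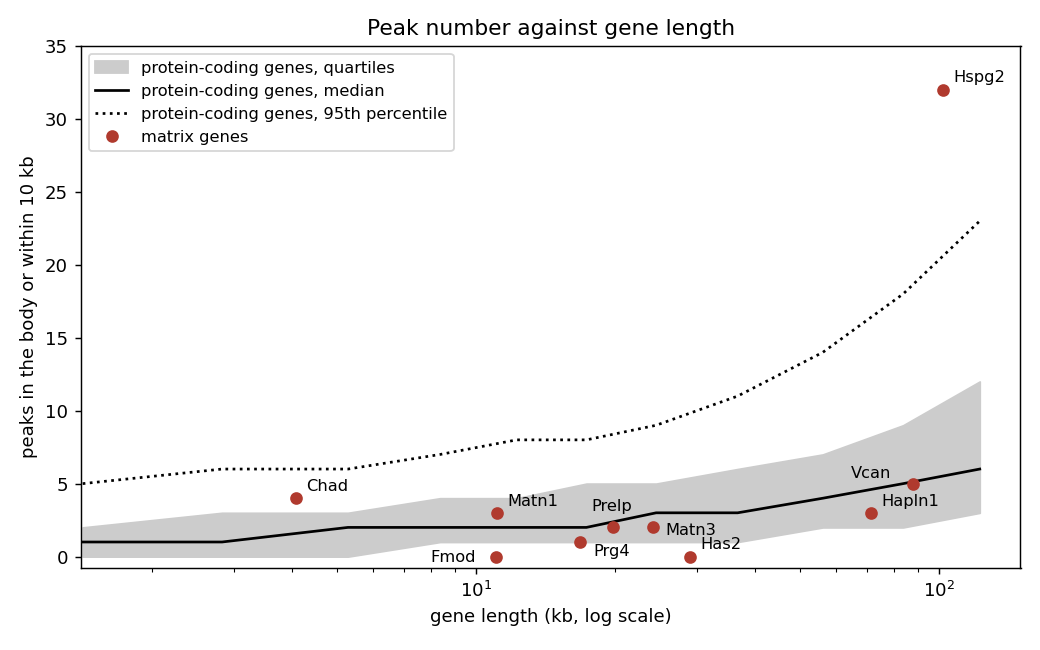
Number of peaks in the body or within 10 kb against gene length in kb on a log scale, for the 10 matrix genes (points) and for protein-coding genes in length bins (line, median; grey, quartiles; dotted, 95th percentile). Hspg2, with 32 peaks, is the 1 member above the dotted line, and Has2 and Fmod lie at 0.

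Compared with the median for genes of similar length, peak number was higher in 3 members (Chad, Matn1 and Hspg2), equal in 2 (Vcan and Prelp) and lower in 5 (Hapln1, Has2, Fmod, Matn3 and Prg4). Counting body peaks alone put 5 members above the median, with Vcan (5 against 4) and Prelp (2 against 1) added. For 6 of the 10 genes the number lay within the quartiles of similar genes. The surroundings of the genes differed as well. The 1 Mb centred on each gene held 14 peaks for Vcan, 15 for Hapln1, 24 for Has2, 30 for Prg4, 34 for Matn3, 51 for Fmod, 53 for Prelp, 58 for Matn1, 84 for Chad and 125 for Hspg2, own peaks included. Over all protein-coding genes the median of this count was 53, with quartiles at 36 and 82. The windows of Vcan and Hapln1 share most of their sequence, as do those of Fmod and Prelp. The 3 members above the median for their length were thus also the 3 with the most peaks around them. This order held without own peaks, at 93 for Hspg2, 80 for Chad and 55 for Matn1. Matn1 was then close to Fmod and Prelp, with 51 each. The part of the neighbourhood in the members' peak numbers was not tested.

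Within the Hspg2 body the peaks lay in its later part. The first 42.4 kb of the body held no peak midpoint, and the 28 body peaks fell in the remaining 59.5 kb, at 4.71 per 10 kb. Their summed width covered 25.7% of that stretch. They began with a group of 4 at 42.4 to 49.8 kb from the start, were interrupted by a gap of 10.9 kb, and then followed each other to the end of the gene. The bin from 70 to 80 kb held 8 peaks, the most of any 10 kb.

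**Figure D3:**
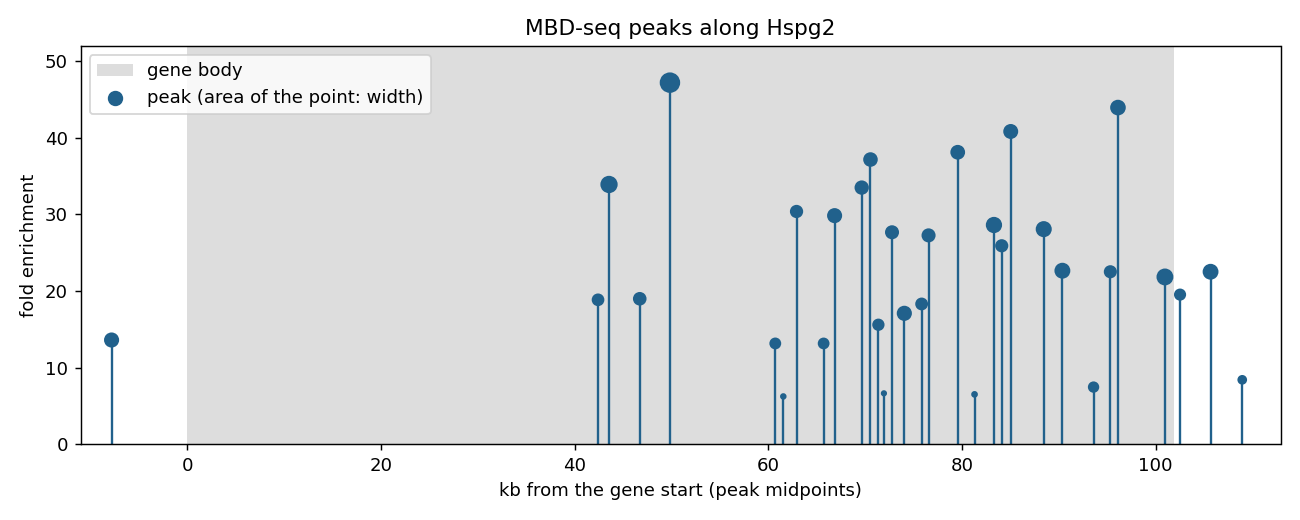
Fold enrichment of the 32 Hspg2 peaks against the distance of their midpoints from the gene start in kb; grey marks the gene body and the area of a point is proportional to peak width. The body is empty up to 42.4 kb, and the highest peak, with a fold of 47.2, stands at 49.8 kb.

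A limit of 40% of the gene length, chosen after seeing Hspg2, was applied to the 208 other protein-coding genes with a known strand and at least 20 body peaks. None of these 208 genes lacked peaks in the first 40% of the body, where the median share was 30% of a gene's body peaks. Hspg2 meets this limit by construction and the genes were not matched on length. The count of 0 therefore does not measure how rare its pattern is. The highest fold in Hspg2 was 47.2, in a peak of 1280 bp at chr4:137517955-137519234 with a −log10 q of 454, the 1 member peak of over 1 kb. The next were 44.0 (chr4:137564499-137565201, 703 bp) and 40.8 (chr4:137553461-137554095, 635 bp), at 96.1 and 85.0 kb from the start. The lowest were 6.24, 6.51 and 6.65, in peaks 81, 87 and 71 bp wide that lay among the strong ones.

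Outside the Hspg2 body there were 4 peaks. The 3 after its end, with folds of 19.5, 22.5 and 8.41, were in the next gene, Ldlrad2, and the first of them lay 0.63 kb past the Hspg2 end. The peak 7.81 kb before the start (chr4:137460621-137461270, 650 bp, fold 13.6) was in the lncRNA Gm13010. Dense peaks continued across the end of Hspg2, whereas the start was flanked by 50.2 kb between neighbouring midpoints.

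The fold enrichment of the 52 peaks had a median of 18.9 (quartiles 10.99 and 27.4), against 13.2 over all 84111 peaks and 13.6 over the 51339 peaks in or within 10 kb of any protein-coding gene. This difference came with Hspg2. Its 32 peaks had a median fold of 22.5 and a median width of 551 bp, whereas the other 20 had a median fold of 11.8 and a median width of 366 bp, both below the medians of the whole list (13.2 and 415 bp). A fold of at least 20 was found in 18 of 32 Hspg2 peaks (56.3%), in 4 of the other 20 (20%) and in 28.9% of all peaks. Peaks of one gene share their neighbourhood and library, so they are not replicates of it.

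**Figure D4:**
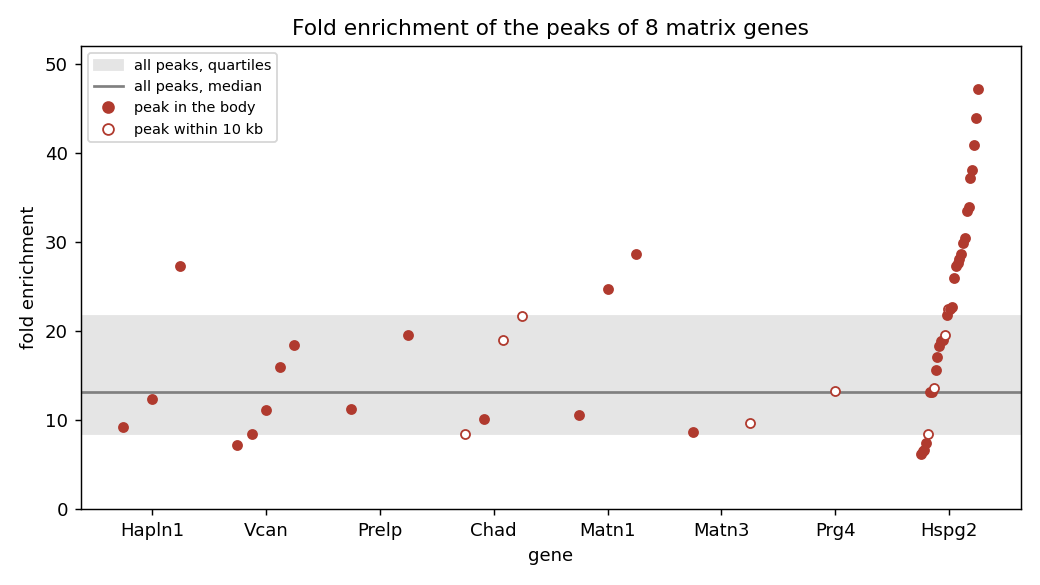
Fold enrichment of each peak of the 8 matrix genes that have any, sorted by value within each gene (filled, in the body; open, within 10 kb); the grey line and band give the median and quartiles of all 84111 peaks. Values of Hspg2 run from 6.24 to 47.2, and no peak of another member exceeds 28.6.

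The pileup of reads and the background behind each fold were solved from the deposited fold and p-value, and all 52 peaks gave a whole-number pileup. In 50 of the 52 the background was 6.37 reads, the lowest in the list, which 74.98% of all peaks share. The fold is the pileup plus 1 divided by the background plus 1, so for these 50 peaks it ranks them by pileup alone. The exceptions were the peak before Hspg2, with 9.80 reads, and the strongest Matn1 peak, with 7.17 reads under a pileup of 233 reads. The largest pileup was 347 reads, in Hspg2, and the smallest, 45 reads, also belonged to Hspg2. The median over the 52 peaks was 139 reads, against 127 over the whole list and 115 over peaks in or within 10 kb of any protein-coding gene. It was 165 reads in Hspg2 but 86 in the other 20 peaks, below both of these. Wider peaks had higher folds among the members (Spearman rho = 0.82 over 52 peaks), in Hspg2 alone (0.72) and in the other 20 peaks without Hspg2 (0.70). The value was 0.71 over the 51339 peaks in or within 10 kb of any protein-coding gene and 0.55 in the whole list. This is a description, as width and fold come from the same reads.

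Body peaks of the members, 28 of 43 of them in Hspg2, were placed towards the ends of genes, as they were in protein-coding genes in general. None of the 43 lay in the first 10% of a body, where 5.66% of 35568 body peaks of protein-coding genes with a known start lay. An absence among 43 is near that background. In the first 40% there were 5 of 43, and 28.9% in general. All 5 belonged to members other than Hspg2. These members had 15 body peaks, and 5 of 15 is near the 28.9% in general. The low share among the 43 thus came with Hspg2. Vcan had 3 of the 5, and Matn1 and Matn3 had 1 each.

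**Figure D5:**
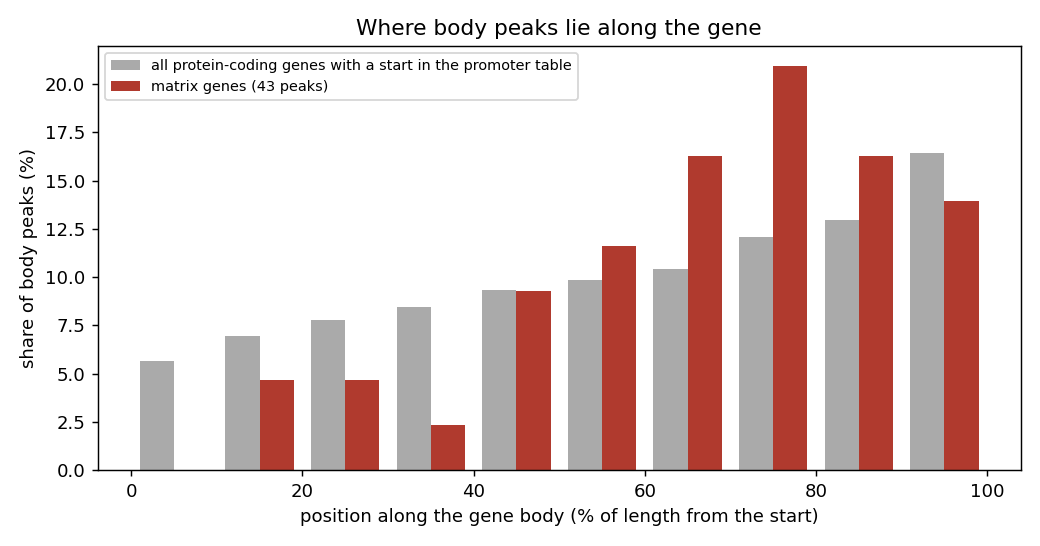
Share of body peaks (%) in steps of 10% of the gene body, from the start to the end of the gene, for protein-coding genes with a known start (grey) and for the matrix genes (red, 43 peaks, 28 of them from Hspg2). Shares of all genes increase from 5.66% in the first step to 16.5% in the last, and the matrix genes have no peak in the first.

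Other genes of matrix assembly were taken as 5 lists, of which 77 of 100 genes were on covered sequence; Acan, which encodes aggrecan, and Comp were among those not analysed here. Of the 77, 74 (96.1%) had at least 1 peak in the body or within 10 kb. The share over all protein-coding genes was 81.7%; it is not matched on length, and some neighbours in the lists share peaks. Cd44, a hyaluronan receptor, and Aspn and Ecm2, both leucine-rich repeat proteins, had none.

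Among 8 hyaluronan and aggregate genes, 7 had a peak, near the 81.7% of all protein-coding genes, and the median was 2 peaks against 3 in genes of similar length. The scavenger receptors Stab1 and Stab2 had 15 and 9, and Hmmr had 3. Cd44 is 90.5 kb long and had 0, where genes of similar length had a median of 5. Of 12 small leucine-rich proteoglycan genes, 10 had a peak, also near that background, with a median of 1 against 2, and 8 were below the median for their length. Chadl had 6 peaks, Podn 4 and Dcn, which encodes decorin, 2.

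All 15 matrilin and other cartilage protein genes had a peak, against 81.7% of all protein-coding genes, with a median of 3 peaks against 2 at similar length. Crtac1 had 29, Fn1, which encodes fibronectin, 23 and Matn4 8. The basement membrane and heparan sulfate proteoglycan genes, the class of Hspg2, had a peak in 20 of 20, against the same 81.7%, with a median of 8 against 4.5 in genes of similar length, and 15 of the 20 were above the median for their length. Gpc6 (1055 kb long) had 53, Lama1 20 and Lama5 19. By count alone, none but the far longer Gpc6 had more than the 32 of Hspg2. Counts ignore length: Lama5 had 18 peaks in a body of 49.5 kb, against 28 in the 101.9 kb of Hspg2. Fn1, of the list before, had 19 in 67.8 kb. A high density of body peaks was thus not particular to Hspg2. The genes of glycosaminoglycan synthesis had a peak in 22 of 22, again against 81.7%, with a median of 5 against 3. Ext2 had 14, and Hs2st1 and Ust 13 each. The 81.7% is not matched on length. Median gene length was 69.6 kb in the basement membrane list and 34.4 kb in the synthesis list.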

How the data were processed

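MBD-seq of 6 chondrocyte cultures (3 control, 3 cKO) was represented by one peak list. Per the submitters' processing notes, fastp, Bowtie2 and MACS2 were used with mm10/GRCm38; versions and settings are not given in the sources used here. Per the peak names, the authors merged 3 datasets (Samtools) and called peaks on the result; the names do not tie the datasets to samples. Each peak has a deposited fold enrichment, a ratio over the caller's background, a deposited −log10 p and −log10 q, and a deposited score, which was not used. Peaks on chromosomes 1 to 5 and 10 to 19 and part of chromosome 6 were analysed; an incomplete last line was left out.

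A peak belonged to a gene when its midpoint lay in the RefSeq body (GRCm38.p6) or within 10 kb. Similar length means within 20%. Pileup and background were solved from fold and p as MACS2 defines them, tested on simulated data; 99.97% of peaks gave a whole pileup within 1% of the step between neighbouring whole pileups. Genes in the first 3 Mb of a chromosome were left out. No test was run, since no value belongs to a sample, and sequencing depth per sample is not known. The 10 genes and 5 comparison lists were chosen with earlier results of these data known; named were the 10 genes and, in each list, the genes without peaks and the 3 with most. Python 3.11.15 with numpy 2.4.6, pandas 2.3.3, scipy 1.17.1 and matplotlib 3.10.9 was used. Alternatives were other placements, windows of 5 kb and 20 kb, stricter thresholds, merging within 500 bp, peaks by background, and other length ranges.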

Additional observations from a re-analysis of the deposited data

How the results depend on the processing

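No paired analysis was possible because peaks were called on merged data without values per culture; for the same reason no replicate was left out. With a window of 20 kb, the 1 setting that could add more distant peaks, Has2 and Fmod still had 0, and the nearest peak to Fmod lay just beyond it, at 20.4 kb. The number of members with a peak ran from 6 to 8, except that peaks above the lowest background alone left 2 members with 2 peaks. A −log10 q of at least 100 left 32 peaks of the 52, with a median fold of 25.3, and peaks of at least the median fold had a median of 22.6; both follow from the filter. Without Hspg2, an alternative added after seeing the data, 20 peaks remained with a median fold of 11.8. Counting body peaks alone put 5 members above genes of similar length in place of 3. Matn3 ranged from 0 peaks, for instance at the −log10 q limits of 50 and 100, to 5 with a 20 kb window, and Hspg2 had 24 to 36 in all alternatives but that of peaks above the lowest background. Depth limits what absence means: regions under the list's limit are not shown. The list gives no spread between cultures.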
